A study of Mus musculus with 2 samples.

Results

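The 6 genes described here encode the enzymes that make and break down prostaglandins: the cyclooxygenases Ptgs1 and Ptgs2, the terminal synthases Ptges, Ptgis and Ptgds, and the breakdown enzyme Hpgd. They were taken by symbol from the 32285 genes of a single-cell RNA-seq study of mouse vein grafts, and all 6 have a row in it. One library was made from No-Touch vein grafts and one from conventional vein grafts. Both used C57BL6/J mice of 10 to 12 weeks, digestion with papain at 37 °C followed by papain with collagenase and dispase, and a sort for live cells without the leukocyte antigen CD45. In surgical use, a No-Touch vein is taken with the tissue around it, while a conventional vein is stripped of that tissue. Each group is 1 library, so no difference between them has a replicate check. The number of mice or grafts behind each library, their sex and the time of harvest are not given in the sources used here.

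Cyclooxygenases turn arachidonic acid, once phospholipases have freed it from membranes, into prostaglandin H2. Ptgs1 is the constitutive form and Ptgs2 the form induced by cytokines, growth factors and handling. Terminal synthases then decide the product: Ptges makes prostaglandin E2, Ptgis makes prostacyclin, a vasodilator that inhibits platelets, and Ptgds makes prostaglandin D2. Hpgd inactivates prostaglandins. In vessels, endothelium and smooth muscle are the classic sources of prostacyclin.

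In mm10 with GENCODE vM21, Ptgs2 lies at chr1:150100031-150108227 on the plus strand and Ptgs1 at chr2:36230426-36252272 on the plus strand. Ptges lies at chr2:30889471-30929863, Ptgis at chr2:167191805-167240604 and Ptgds at chr2:25466709-25470046, all on the minus strand. Hpgd lies at chr8:56294585-56321043 on the plus strand. Promoter windows of 300 bases, 250 before and 50 after the start site, were found for 5 of the 6 genes in a RefSeq table for GRCm38.p6. The 3 windows below are of the 2 cyclooxygenases and of the prostaglandin E2 synthase, shown because the constitutive and the induced cyclooxygenase, and the synthase held mainly by fibroblasts, differed in which cells held them. Each reads 5′ to 3′ on the gene's strand, and capitals mark matches to 6 motifs. Searched on both strands, these were the CRE, spelled TGACGT, the E-box, spelled CACGTG, and the C/EBP palindrome, spelled TTGCGCAA. The others were the GC box with the letters GGGCGG, the TATA box with the letters TATAAA, and the AP-1 motif with the letters TGANTCA. The Ptges window follows the RefSeq start, which lies inside the GENCODE extent of the gene.
Ptgs2, chr1:150099781-150100080, plus strand: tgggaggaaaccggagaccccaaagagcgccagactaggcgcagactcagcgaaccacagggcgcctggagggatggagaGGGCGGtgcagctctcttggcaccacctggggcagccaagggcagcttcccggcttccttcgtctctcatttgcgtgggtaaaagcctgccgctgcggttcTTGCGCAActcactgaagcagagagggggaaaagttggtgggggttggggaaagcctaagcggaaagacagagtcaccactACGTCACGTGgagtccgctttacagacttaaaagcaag
Ptges, chr2:30903248-30903547, minus strand: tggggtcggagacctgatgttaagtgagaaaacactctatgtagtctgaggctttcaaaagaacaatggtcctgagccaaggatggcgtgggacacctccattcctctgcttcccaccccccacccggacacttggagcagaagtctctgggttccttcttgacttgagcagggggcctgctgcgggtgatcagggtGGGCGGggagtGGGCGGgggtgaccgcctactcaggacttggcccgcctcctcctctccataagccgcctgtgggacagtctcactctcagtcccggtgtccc
Ptgs1, chr2:36230176-36230475, plus strand: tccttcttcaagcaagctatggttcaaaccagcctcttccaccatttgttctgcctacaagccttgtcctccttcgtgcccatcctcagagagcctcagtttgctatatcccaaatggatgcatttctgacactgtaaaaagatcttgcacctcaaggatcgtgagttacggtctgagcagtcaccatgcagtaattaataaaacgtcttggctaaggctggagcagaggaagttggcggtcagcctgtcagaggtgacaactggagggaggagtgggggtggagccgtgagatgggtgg
The Ptgs2 window held 4 matches. Its C/EBP palindrome, at -69 to -62 from the start site, is found in 0.183% of 32851 such windows. A GC box (35.7% of windows) lay at -170 to -165. A CRE on the opposite strand (7.51% of windows) lay at 13 to 18 and overlapped an E-box (7.15% of windows) at 17 to 22, so that the pair prints as 1 run of capitals. The Ptges window held 2 GC boxes, at -53 to -48 and at -42 to -37. The Ptgs1 window held none of the 6 motifs. The TATA box is in 13.6% and AP-1 in 7.81% of windows. A match describes the letters and is not a binding site.

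After filtering, 11525 No-Touch cells and 10458 conventional cells remained, with medians of 28472 and 16779 unique molecular identifiers (UMIs, one per captured transcript) per cell. A UMI count is not scaled by gene length. Cells were put into classes by marker genes, named here without the suffix -like: there were 8981 No-Touch and 6390 conventional fibroblasts, 572 and 991 mural cells, 366 and 836 blood endothelial cells, 273 and 311 lymphatic endothelial cells, 307 and 192 Schwann cells, and 91 and 434 neutrophils, which the CD45 sort should have removed. The libraries shared 18 barcodes among the kept cells. The 2 libraries also differ in the mice behind them. Xist, the RNA of the inactive X chromosome, stood at 0.105 CPM, the UMIs of a gene per 1000000 UMIs, in the No-Touch library and at 162 CPM in the conventional library, whereas the Y-linked Ddx3y stood at 118 and 84.5 CPM. The conventional library therefore held RNA of female and male mice. It held much RNA of the parathyroid hormone gene Pth (2930 CPM, against 148 CPM in the No-Touch library), while the salivary gene Bpifa2 had 544 CPM in the No-Touch library and no UMI in the conventional one.

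Fibroblasts held most of the transcripts of the prostaglandin enzymes. They supplied 89.2% of the Ptgs2 UMIs in the No-Touch library and 82.1% in the conventional library, and 91.1% and 88.2% of the Ptgis UMIs. For Ptges the shares were 95.4% and 87.1%. Fibroblasts themselves gave 88.4% and 74.9% of all UMIs. In CPM the order of the classes was different: Ptgs2 was highest in neutrophils, Ptgs1 in blood endothelial cells, and Ptges in fibroblasts, in the classes with at least 50 cells in both libraries.

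**Figure D1:**
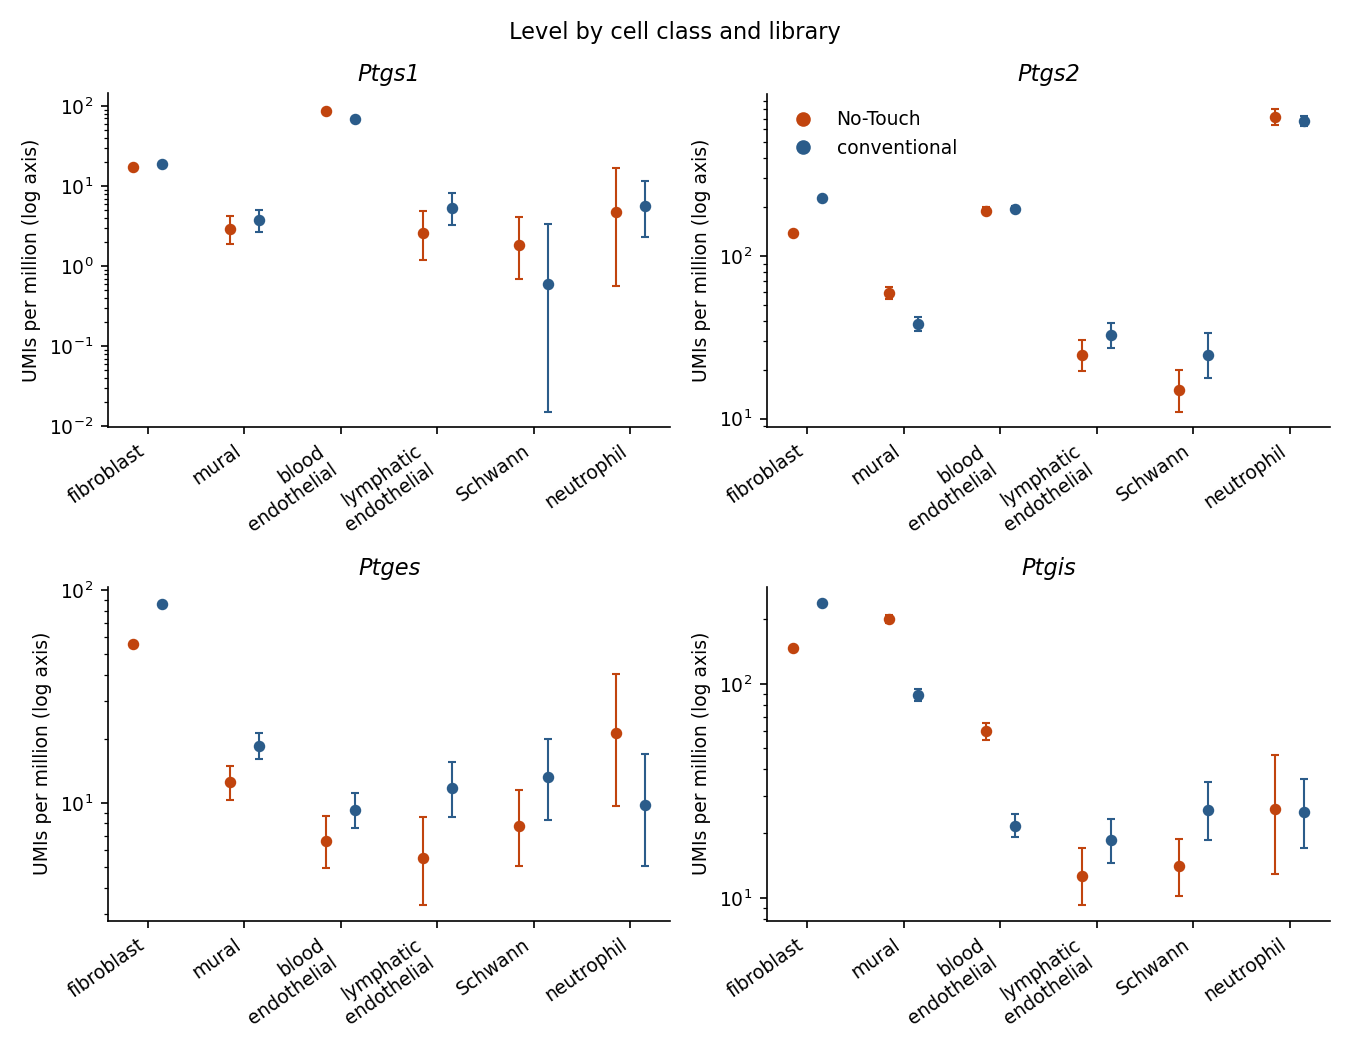
Levels of Ptgs1, Ptgs2, Ptges and Ptgis in CPM (log axis) in 6 cell classes, No-Touch left of conventional; bars are exact 95% Poisson intervals, which cover counting error only. Ptgs1 peaks in blood endothelial cells (86.0 and 69.1) and Ptgs2 in neutrophils (720 and 677), while the libraries separate in opposite directions for Ptgis in fibroblasts and mural cells.

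The induced cyclooxygenase Ptgs2 was found in all 6 classes. It stood at 138 CPM in No-Touch fibroblasts (95% Poisson interval 137 to 139) and at 228 CPM in conventional fibroblasts (225 to 230). All intervals given here cover counting error only. In blood endothelial cells Ptgs2 stood at 190 CPM (180 to 200) in No-Touch cells and 196 CPM (188 to 204) in conventional cells, intervals that overlap. Mural cells, which surround the endothelium, held 59.7 CPM (54.8 to 64.8) and 38.2 CPM (34.6 to 42.1). Neutrophils, which are known for inducible Ptgs2, had 720 CPM (641 to 806) and 677 CPM (632 to 725), also overlapping. The neutrophils carried S100a8, a defining gene of theirs, at 14262 and 7063 CPM. Mononuclear phagocytes held 285 CPM of Ptgs2 in 89 No-Touch cells and 277 CPM in 46 conventional cells. Lymphatic endothelial cells (24.5 and 32.8 CPM) and Schwann cells (14.9 and 24.6 CPM) stood lowest of the 6 classes in both libraries.

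The constitutive cyclooxygenase Ptgs1 was highest, in CPM, in blood endothelial cells among the 6 classes. Its level there was 86.0 CPM (79.6 to 92.7) in No-Touch cells and 69.1 CPM (64.6 to 74.0) in conventional cells, a ratio of 1.24 (exact conditional interval 1.12 to 1.38). In fibroblasts it stood at 17.3 CPM and 19.0 CPM, a ratio of 0.908 (0.868 to 0.951). Without 7 fibroblast clusters led by other classes' or parathyroid markers, which hold 3398 of the 6390 conventional fibroblasts, this ratio was 1.28. All of these ratios are under the 1.5-fold size used here to name a difference. Mural, lymphatic endothelial, Schwann and neutrophil cells had between 0.601 and 5.69 CPM. Outside the 6 classes, cells gated as mesothelial held more Ptgs1, at 200 CPM in 2 No-Touch and 115 CPM in 21 conventional cells. These rest on 19 and 32 UMIs, in a class too small to compare. Fibroblasts gave 85.9% of Ptgs1 UMIs in the No-Touch library and 69.1% in the conventional library, with 10.2% and 20.9% from blood endothelial cells.

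Among the terminal synthases, Ptges stayed close to the fibroblasts, at 56.0 CPM (55.2 to 56.8) in No-Touch fibroblasts and 86.3 CPM (84.8 to 87.8) in conventional fibroblasts. No other of the 6 classes exceeded 21.2 CPM in the No-Touch library or 18.5 CPM in the conventional library. The 24 No-Touch and 130 conventional epithelial cells held 93.7 and 39.7 CPM of Ptges, in a class too small to compare. Other small classes also held Ptges, among them 21 conventional cells gated as mesothelial (101 CPM, on 28 UMIs). Mononuclear phagocytes held 11.0 CPM in 89 No-Touch cells and 70.0 CPM in 46 conventional cells, on 11 and 23 UMIs. Among the 6 classes, the prostacyclin synthase Ptgis was shared by fibroblasts and mural cells. It stood at 147 CPM (146 to 149) in No-Touch fibroblasts and 238 CPM (236 to 241) in conventional fibroblasts. Mural cells held 200 CPM (191 to 210) and 88.8 CPM (83.3 to 94.6), so the order of the classes turned round between the libraries. Blood endothelial cells held 59.9 CPM (54.6 to 65.5) in No-Touch and 21.8 CPM (19.2 to 24.5) in conventional cells. Outside the 6 classes, cells gated as mesothelial held more Ptgis, at 945 CPM in 2 No-Touch and 713 CPM in 21 conventional cells. These rest on 90 and 198 UMIs, in a class too small to compare.

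Ptgds and Hpgd were scarce. Ptgds gave 17 UMIs in all kept No-Touch cells and 54 in all kept conventional cells. Hpgd gave 1005 and 937 UMIs, or 2.70 and 4.75 CPM over all cells. In fibroblasts Hpgd stood at 2.82 CPM (No-Touch) and 5.23 CPM (conventional), a ratio of 0.539 (0.490 to 0.594), below the 10 CPM needed to be compared. Among the gated classes of at least 20 conventional cells its highest levels were in 21 conventional cells gated as mesothelial (68.4 CPM, on 19 UMIs) and in epithelial cells (12.1 CPM in No-Touch and 22.7 CPM in conventional cells).

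RNA of fibroblasts was present in droplets of every other class, which bears on the low levels. The fibroblast proteoglycan gene Dcn stood at 5.16% to 9.33% of its fibroblast level in the other 5 No-Touch classes and at 6.03% to 7.32% in the other 5 conventional classes. At those ratios, fibroblast RNA alone would give Schwann cells 7.60 CPM of Ptgis in the No-Touch library and 16.6 CPM in the conventional library, against 14.0 and 25.9 CPM measured. For blood endothelial cells it would give 13.7 and 16.9 CPM of Ptgis, against the 59.9 and 21.8 CPM measured. The conventional blood endothelial level is thus close to the level that fibroblast RNA would give, and the No-Touch level is well above it. Ptges in blood endothelial cells (6.61 and 9.25 CPM) stood near the 5.22 and 6.11 CPM that fibroblast RNA would give.

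Which enzymes differed between the grafts was asked class by class, of members with at least 10 CPM in either library, naming ratios of at least 1.5. In fibroblasts, 3 of 4 members were lower in No-Touch and 0 were higher; of all 8433 genes compared, 3.57% were lower and 7.61% higher, with a median log2 ratio of 0.05. The 3 were Ptgs2 (log2 ratio -0.72, ratio 0.606, 0.598 to 0.615), Ptgis (-0.69, ratio 0.618, 0.609 to 0.626) and Ptges (-0.62, ratio 0.649, 0.635 to 0.664). For Ptges the ratio was 0.809 (0.785 to 0.835), under the 1.5-fold size, without the 7 clusters led by other classes' or parathyroid markers. Those clusters hold 3398 of the 6390 conventional fibroblasts. In mural cells, 2 of 3 were higher and 0 lower, where 12.4% of 8875 genes were higher and 6.81% lower. These were Ptgis (1.17, ratio 2.26, 2.09 to 2.44) and Ptgs2 (0.64, ratio 1.56, 1.37 to 1.78). In blood endothelial cells 1 of 3 was higher, Ptgis (1.46, ratio 2.75, 2.36 to 3.21), and 0 were lower; 11.0% of 8658 genes were higher and 5.62% lower. Different clusters held the blood endothelial cells of each library, and none had 50 cells of both. Cluster 3 held 256 No-Touch and 11 conventional cells, cluster 6 held 6 and 379, cluster 7 held 1 and 144, and cluster 0 held 36 and 208.

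The other classes rest on few UMIs. In lymphatic endothelial cells Ptges was lower (5.48 against 11.7 CPM, on 19 and 46 UMIs), 1 of 3 members, where 7.80% of 8766 genes were lower and 9.84% higher. In Schwann cells all 3 compared members, Ptgs2, Ptges and Ptgis, were lower, where 9.24% of 9640 genes were lower and 14.3% higher, but on 22 to 48 UMIs in a library. For Ptges the interval of the ratio (0.318 to 1.09) includes 1. Fibroblast RNA alone would give 7.12 CPM of Ptgs2 in No-Touch Schwann cells and 15.8 CPM in conventional ones, and with it subtracted none of the 3 reached 10 CPM in either library. In neutrophils Ptges was higher on 9 and 12 UMIs, with an interval of 0.810 to 5.63 that includes 1; 27.3% of 6688 genes were higher there and 17.1% lower. Neutrophil Ptgs2, with a ratio of 1.06 (0.929 to 1.21) over all cells, had one of 2.29 (1.62 to 3.29) in the 27 No-Touch and 28 conventional neutrophils with Y-linked RNA only, at 1217 and 532 CPM. The opposite directions of Ptgs2 and Ptgis in fibroblasts and mural cells were not tested, since each class has 1 library per group.

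**Figure D2:**
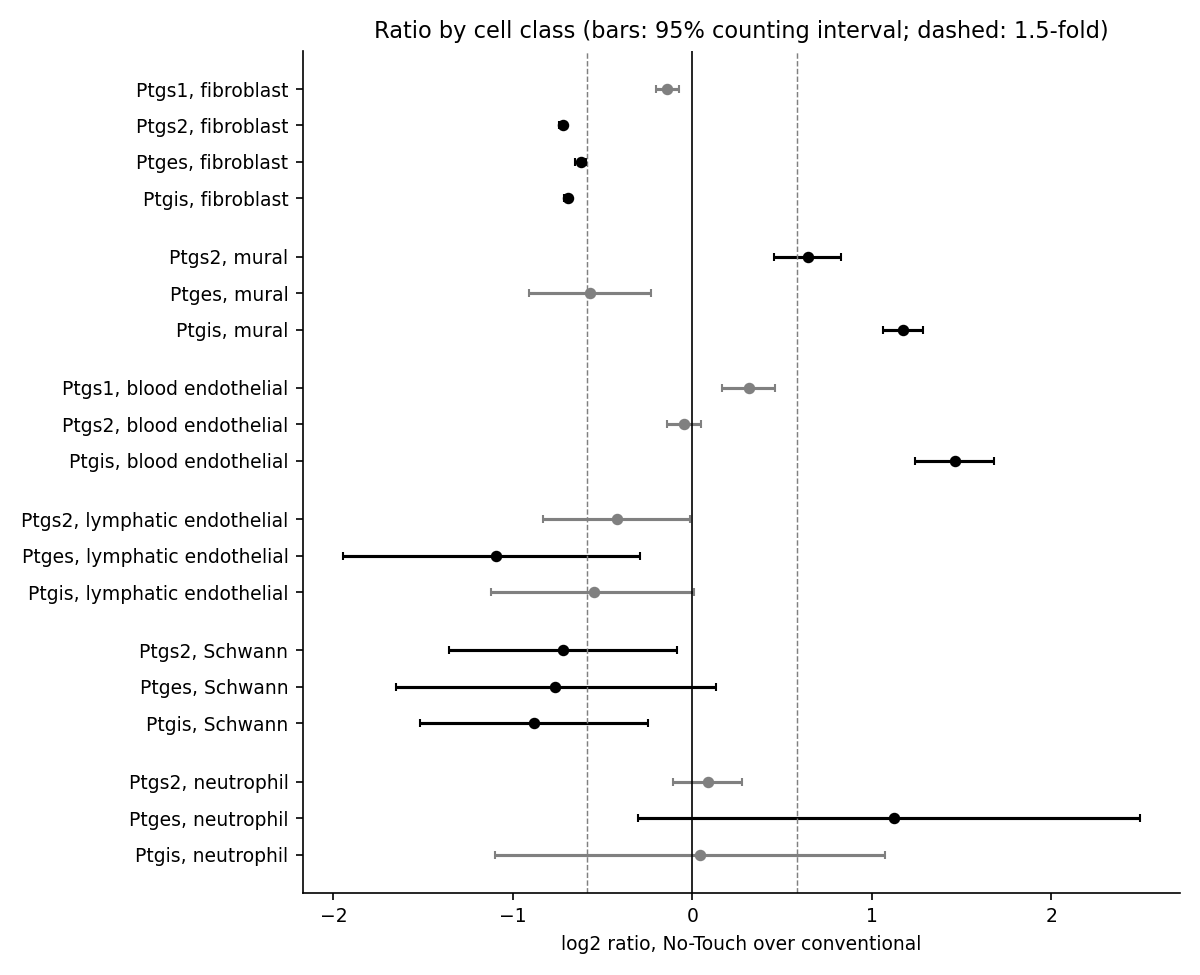
Log2 ratio of No-Touch over conventional CPM for each member compared in each class; bars are exact 95% intervals for counting error only, dashed lines mark 1.5-fold, and black points are past it. Ptgs2, Ptges and Ptgis lie left of the line in fibroblasts (-0.72, -0.62 and -0.69) and Ptgs2 and Ptgis right of it in mural cells (0.64 and 1.17).

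Some clusters had more markers of another class than of their own among their 10 leading genes, and the ratios were computed again without them. Leading genes were ranked against the other clusters of the class, and no fibroblast cluster had a fibroblast marker among them. Any marker of another class therefore sufficed to leave a fibroblast cluster out. This choice cannot show that the cells left out are not fibroblasts. Without 6 fibroblast clusters of this kind (580 No-Touch and 322 conventional cells), Ptgs2 stood at 137 and 227 CPM, Ptges at 56.7 and 87.1 CPM, and Ptgis at 145 and 235 CPM. The ratios were 0.604, 0.651 and 0.616. The parathyroid marker list was not used for this choice. With it, fibroblast cluster 9 is also of this kind, since Pth and Chga are among its leading genes. Pth stood at 301 CPM in its conventional cells and between 173 and 314 CPM in the other conventional fibroblast clusters of at least 50 cells. Without these 7 clusters (609 No-Touch and 3398 of the 6390 conventional fibroblasts), Ptgs2 stood at 137 and 252 CPM, a ratio of 0.541 (0.532 to 0.551), and Ptgis at 145 and 289 CPM, a ratio of 0.502 (0.494 to 0.510). Ptges then stood at 56.6 and 69.9 CPM, under the 1.5-fold size, and Ptgs1 at 17.3 and 13.6 CPM, a ratio of 1.28 (1.20 to 1.37) whose direction is opposite to that over all fibroblasts. Without 2 mural clusters (12 and 244 cells), Ptgis was 204 and 109 CPM, a ratio of 1.87 (1.72 to 2.02). Mural Ptgs2 then stood at 60.3 and 43.4 CPM, and its ratio of 1.39 (1.22 to 1.59) is under the 1.5-fold size. Without 1 blood endothelial cluster (9 and 62 cells), Ptgis was 60.6 and 15.4 CPM, a ratio of 3.93 (3.30 to 4.71).

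In fibroblasts, Ptgs2 and Ptgis also differed inside the conventional library, between cells with Xist and cells with Y-linked RNA. There, 954 fibroblasts held at least 2 Xist UMIs and no UMI of 4 Y-linked genes, and 3378 held at least 2 Y-linked UMIs and none of Xist. Ptgs2 stood at 157 CPM (151 to 162) in the conventional cells with Xist and at 244 CPM (241 to 248) in the conventional Y-linked cells, a ratio of 0.642 (0.618 to 0.667). Ptgis stood at 127 CPM (122 to 132) and 261 CPM (258 to 265), a ratio of 0.488 (0.468 to 0.509). These within-library differences are about as large as, or larger than, those between the libraries. Ptges did not share them, at 89.1 CPM (85.0 to 93.4) and 84.9 CPM (82.9 to 86.9), a ratio of 1.05 (0.996 to 1.11). Median depth was 19844 UMIs in the Xist cells and 21667 in the Y-linked cells. Cluster makeup differed too: fibroblast cluster 6 held 7.86% of the Xist cells and 24.2% of the Y-linked cells. Ptgs2 in Xist and Y-linked cells was 100 and 119 CPM in cluster 0, and 246 and 210 CPM in cluster 1. It was 266 and 265 CPM in cluster 6, and 146 and 226 CPM in cluster 9. Only in cluster 9 do these intervals not overlap. Ptgis was lower in the Xist cells in all of these clusters, with overlapping intervals in cluster 1.

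Set against conventional Y-linked fibroblasts alone, the 8036 No-Touch Y-linked fibroblasts had lower Ptgs2 (139 against 244 CPM, ratio 0.569, 0.559 to 0.578), Ptgis (148 against 261 CPM, ratio 0.568, 0.558 to 0.577) and Ptges (56.1 against 84.9 CPM, ratio 0.661, 0.643 to 0.680). The ratios of Ptgs2 and Ptgis were thus farther from 1 in cells with Y-linked RNA only than in all fibroblasts, and that of Ptges about the same. The cells with Xist come from at least 1 other mouse, and sex, mouse and graft origin cannot be told apart. How far mice within a group differ was measured only through this split. In blood endothelial cells the same split within the conventional library gave 193 and 209 CPM of Ptgs2 and 17.6 and 18.2 CPM of Ptgis, with overlapping intervals. In conventional mural cells with Xist, Ptgis stood at 64.1 CPM (54.9 to 74.4), against 107 CPM (97.6 to 116) in conventional Y-linked mural cells. No-Touch Y-linked mural cells held 205 CPM of Ptgis and 65.1 CPM of Ptgs2, against 107 and 39.0 CPM in conventional Y-linked mural cells.

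**Figure D3:**
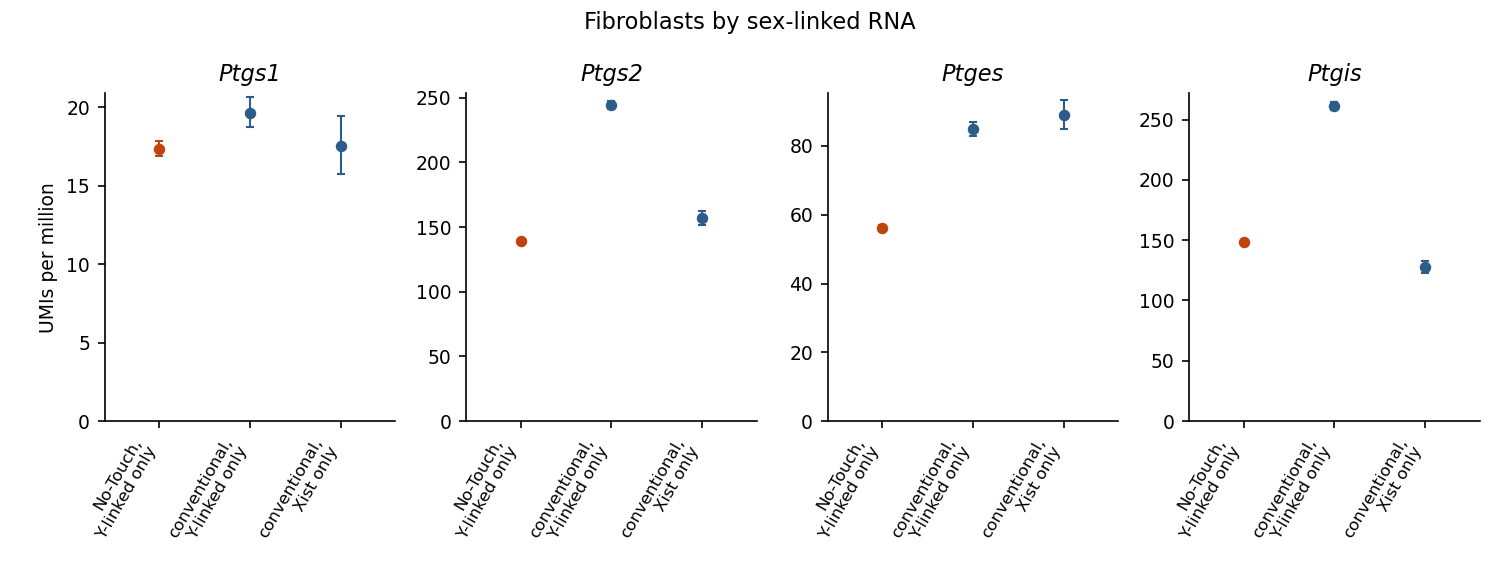
Levels in fibroblasts, in CPM from 0, of No-Touch cells with Y-linked RNA only, conventional cells with Y-linked RNA only and conventional cells with Xist only; bars are exact 95% Poisson intervals. Ptgs2 and Ptgis of the conventional Xist cells (157 and 127) lie near the No-Touch cells (139 and 148), while Ptges of both conventional sets (84.9 and 89.1) lies above the No-Touch cells (56.1).

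Fibroblasts were split into 16 clusters found without the prostaglandin pathway genes, and clusters 2, 6, 7 and 9 came almost wholly from 1 library. Clusters 10 to 15 had more markers of another class than of fibroblasts among their 10 leading genes. Cluster 9 had 2 parathyroid markers among its leading genes. No fibroblast cluster had a fibroblast marker there, so the lack of one sets no cluster apart. Among conventional clusters 0 to 9 of at least 50 cells, Ptgs2 was highest in cluster 7 (6 No-Touch and 548 conventional cells, led by Serpinb2, Cxcl14 and Prg4, the lubricin gene), at 359 CPM, with Ptgis at 400 CPM. Cluster 6 (20 No-Touch and 1338 conventional cells, led by the collagenase gene Mmp13 and by Spp1) held 260 CPM of Ptgs2, 273 CPM of Ptgis and 14.3 CPM of Hpgd in its conventional cells. Cluster 9, the largest of the conventional library (29 No-Touch and 3076 conventional cells), held 199.6 CPM of Ptgs2 and 106 CPM of Ptges in its conventional cells. It was led by the chemokine gene Cxcl13 and had Xist, Pth and Chga among its 10 leading genes. It carried 66.4% of the conventional fibroblasts with Xist (633 cells) and 44.7% of those with Y-linked RNA only (1509 cells).

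The No-Touch library's largest cluster, number 2 (2955 No-Touch and 48 conventional cells, led by Sema3c, Cd55 and Dpp4, genes known from adventitial fibroblasts), held 147 CPM of Ptgs2 and 33.5 CPM of Ptgs1 in its No-Touch cells. Cluster 8 (188 No-Touch and 43 conventional cells, led by Apod and Angptl7) stood apart by its synthases. Its Ptges was the highest among No-Touch clusters of at least 50 cells, at 166 CPM, and its Ptgis the lowest, at 30.3 CPM. Cluster 15 (5 No-Touch and 108 conventional cells, led by the mesothelial gene Wt1) held 536 CPM of Ptgis and 70.9 CPM of Ptgs1 in its conventional cells.

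6 clusters had at least 50 cells in both libraries, and within them the differences were not uniform. The No-Touch over conventional log2 ratio of Ptgs2 ran between -1.05 and 0.08, that of Ptges between -0.62 and 0.12, and that of Ptgis between -0.85 and 0.05. Their equally weighted means were -0.42 for Ptgs2, -0.38 for Ptges and -0.42 for Ptgis, all under 1.5-fold. Of the 6, clusters 11, 13 and 14 were among those led by other classes' markers. In the other 3, Ptgs2 had log2 ratios of 0.08 in cluster 0, -0.33 in cluster 1 and -0.16 in cluster 4. Cluster 0, led by the matrix genes Thbs4 and C1qtnf3, had 127 CPM of Ptgs2 in No-Touch and 120 CPM in conventional cells. Cluster 4, led by Crabp2 and Csf2, had 234 and 226 CPM of Ptgis. In both the intervals overlap. In cluster 1, led by Inmt and Kcnj8, Ptgis stood at 136 CPM in No-Touch and 221 CPM in conventional cells (log2 ratio -0.70) and Ptges at 27.3 and 41.0 CPM (-0.59), both past 1.5-fold. Ptgis in cluster 0 stood at 147 and 193 CPM (-0.39). Ptges had log2 ratios of -0.49 in cluster 0 and -0.29 in cluster 4. Ptgs1 stood at 9.77 CPM in No-Touch and 20.4 CPM in conventional cells of cluster 4 (log2 ratio -1.06), past 1.5-fold. In the other clusters with at least 50 cells in both libraries, the log2 ratio of Ptgs1 ran between -0.57 and 0.11. How much of the class difference is cluster makeup cannot be told apart from the library, since several clusters came almost wholly from 1 library.

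**Figure D4:**
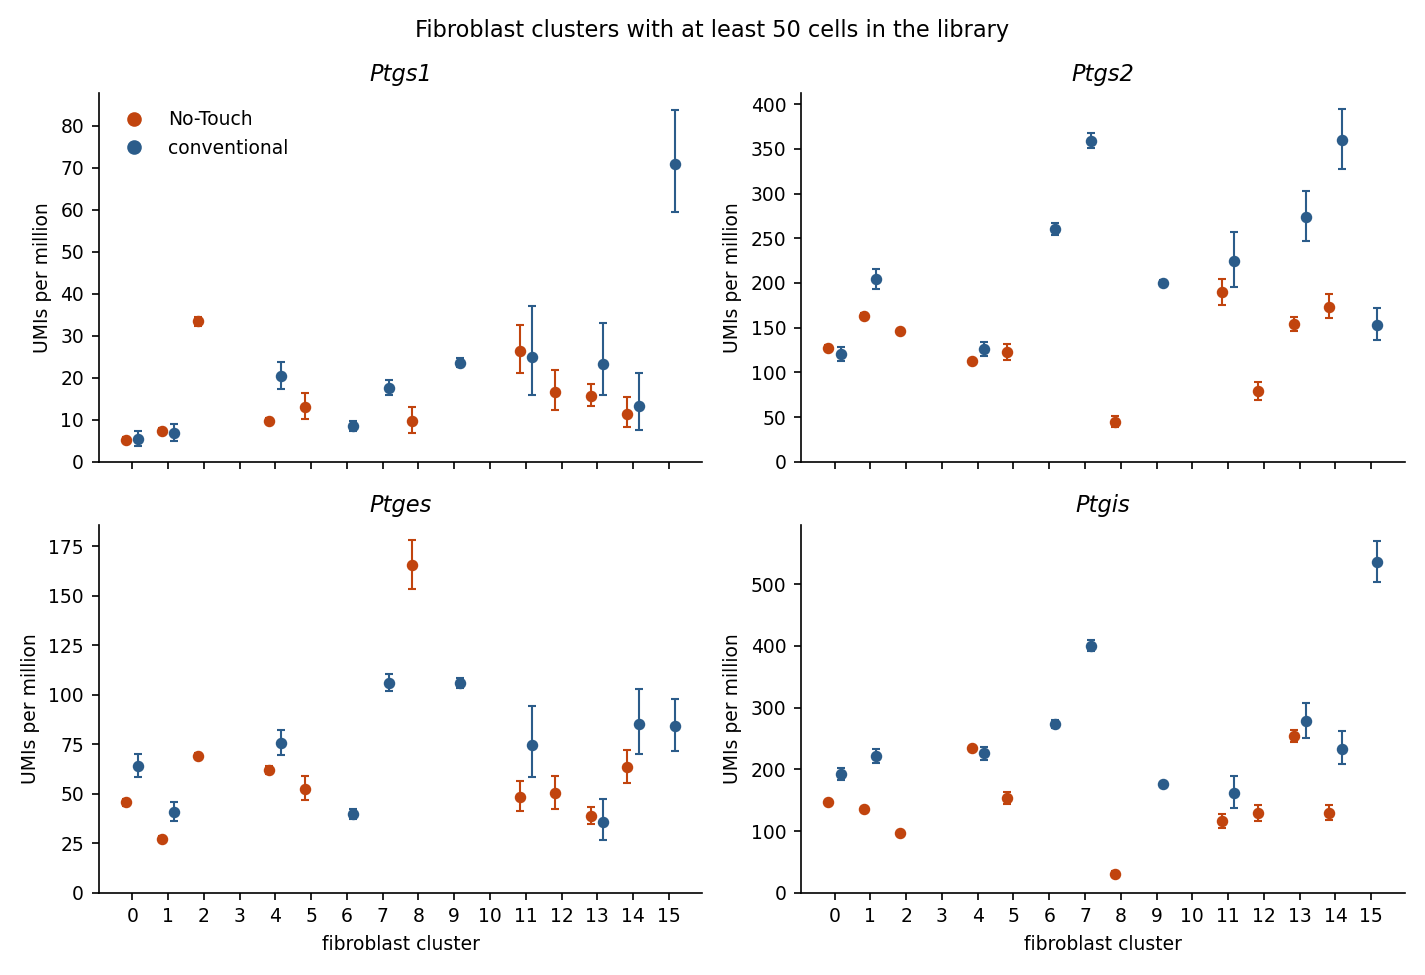
Levels of 4 members in fibroblast clusters with at least 50 cells in the library, in CPM from 0, No-Touch left of conventional; bars are exact 95% Poisson intervals. Cluster 2 is No-Touch and clusters 6, 7 and 9 are conventional; Ptges peaks in No-Touch cluster 8 (166) and Ptgis in conventional cluster 15 (536).

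The share of fibroblasts with a transcript followed the levels. With each cell thinned to 3000 UMIs, 22.7% of No-Touch fibroblasts (exact binomial interval 21.8 to 23.5) and 34.7% of conventional fibroblasts (33.6 to 35.9) held a Ptgs2 UMI. At least 3 such UMIs were held by 3.74% and 7.55%. A Ptgis UMI was held by 29.8% and 40.6%, and a Ptges UMI by 13.9% and 19.3%. Schwann cells, taken as the class that should lack these enzymes, gave 6.18% and 5.42% for Ptgs2, 1.93% and 6.02% for Ptgis, and 2.70% and 1.20% for Ptges. Before thinning, at median depths of 32649 and 20527 UMIs for fibroblasts and 8903 and 7877 for Schwann cells, 68.4% of No-Touch and 72.5% of conventional fibroblasts held Ptgs2, against 14.0% and 13.0% of Schwann cells. The thinning left out 165 No-Touch and 82 conventional fibroblasts.

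Fibroblasts with a Ptgs2 UMI did not hold detectably more of the synthases than fibroblasts without one. At 5000 UMIs per cell, a Ptges UMI was held by 21.8% of No-Touch fibroblasts with Ptgs2 and 21.5% of those without, and by 28.9% and 27.4% in the conventional library, with overlapping intervals. For Ptgis the shares were 42.3% and 40.7% in the No-Touch library and 54.2% and 53.4% in the conventional library, again overlapping. In mural cells, Ptgis was held by 56.5% of No-Touch cells with Ptgs2 (45.3 to 67.2) and 26.9% of those without (23.0 to 31.1), and by 30.8% (22.3 to 40.5) and 9.42% (7.51 to 11.6) in the conventional library. In both libraries, mural cells with Ptgs2 thus held Ptgis more often than those without, beyond counting error. Mural cells with smooth muscle genes held more of both than the other mural cells. The shares were not computed within either kind, so they do not show a link cell by cell.

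Mural Ptgis sat in the contractile cells. Where at least 2 of the smooth muscle genes Myh11, Cnn1 and Lmod1 were positive, it stood at 301 CPM in 338 No-Touch cells (287 to 315) and at 174 CPM in 374 conventional cells (162 to 186). In the remaining 234 and 617 mural cells it stood at 18.9 and 22.5 CPM, against the 10.9 and 14.4 CPM that fibroblast RNA would give. Ptgs2 in the contractile cells was 82.5 and 44.7 CPM. Contractile cells made up a larger part of the No-Touch class, and a single cluster carried 1580 of the 1878 Ptgis UMIs of No-Touch mural cells and 506 of the 969 of conventional ones. This cluster, number 4, led by the integrin gene Itga8, by Npnt and by Cnn1, held 155 of the 572 No-Touch mural cells (27.1%) and 33 of the 991 conventional ones (3.33%). Within it, Ptgis was lower in No-Touch cells, at 525 CPM (499 to 551) against 917 CPM (839 to 1000.4) in conventional cells.

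In clusters 2, 3 and 4 the direction of Ptgis was therefore the reverse of that in the class. In cluster 3, led by the phospholamban gene Pln, Ptgis stood at 24.1 CPM (17.2 to 33.0) in 126 No-Touch cells and 43.5 CPM (33.9 to 55.0) in 154 conventional cells. In cluster 2 it stood at 322 CPM (278 to 370) in 18 No-Touch cells and 451 CPM (396 to 512) in 29 conventional cells. Ptgs2 in cluster 4 was 105 CPM in No-Touch and 120 CPM in conventional cells, with overlapping intervals. In cluster 3, the only mural cluster with at least 50 cells in both libraries, Ptgs2 kept the direction of the class. It stood there at 41.5 CPM in No-Touch and 26.7 CPM in conventional cells (log2 ratio 0.63, interval of the ratio 1.04 to 2.33). When classes were taken from clusters of all cells instead of gates, 154 of the 155 No-Touch and 32 of the 33 conventional cluster 4 cells fell in clusters that got no name. The mural log2 ratio of Ptgs2 was then -0.20 and that of Ptgis 0.46.

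Blood endothelial Ptgis was concentrated in cells with Cytl1 in the No-Touch library: 39 such cells held 223 of its 471 UMIs, against 34 of 268 in 21 conventional cells. In those with Cytl1, a gene of a secreted protein, it stood at 246 CPM in No-Touch cells (215 to 281) and 130 CPM in conventional cells (89.8 to 181). Those without Cytl1 had 35.6 CPM in 327 No-Touch cells, on 248 UMIs, and 19.4 CPM in 815 conventional cells, on 234 UMIs. The Cytl1 cells also held more Dcn (1883 and 1225 CPM) than the others (866 and 723 CPM). Their Ptgs2 stood at 378 and 553 CPM, against 165 and 188 CPM in cells without Cytl1. The largest No-Touch cluster of the class (256 of 366 cells, led by Igfbp5, Sele and Selp) held 10.8 CPM of Ptgis, no more than the fibroblast RNA level, with 118 CPM of Ptgs1 and 131 CPM of Ptgs2. The largest conventional cluster, number 6 (379 of 836 cells, led by Csf3, Serpina1b and Fgf23), held 12.1 CPM of Ptgis, 99.9 CPM of Ptgs1 and 271 CPM of Ptgs2. In cluster 2, led by Cytl1, Ptgis stood at 223 CPM (196 to 252) in 44 No-Touch cells and 125 CPM (93.6 to 163) in 18 conventional cells. Of the 471 No-Touch Ptgis UMIs, 254 were in cluster 2 and 137 in the 8 cells of cluster 1, which was led by cell-cycle genes.

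Cyclooxygenases in the endothelium followed the venular marker Selp, the P-selectin gene. Ptgs1 stood at 91.1 CPM in 326 No-Touch and 79.8 CPM in 707 conventional cells with Selp, and at 31.0 and 11.9 CPM in 40 and 129 cells without it. Ptgs2 stood at 204 and 228 CPM with Selp, and at 44.3 and 24.9 CPM without it. In cells with the capillary marker Gpihbp1 (24 and 138 cells), Ptgs2 was 26.9 and 35.4 CPM. Selp is also 1 of the markers that placed cells in this class. A further 51 No-Touch and 47 conventional endothelial cells had too few markers of blood or lymphatic vessels to be placed, and held 435 and 119 CPM of Ptgs2 and 226 and 51.8 CPM of Ptgis.

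**Figure D5:**
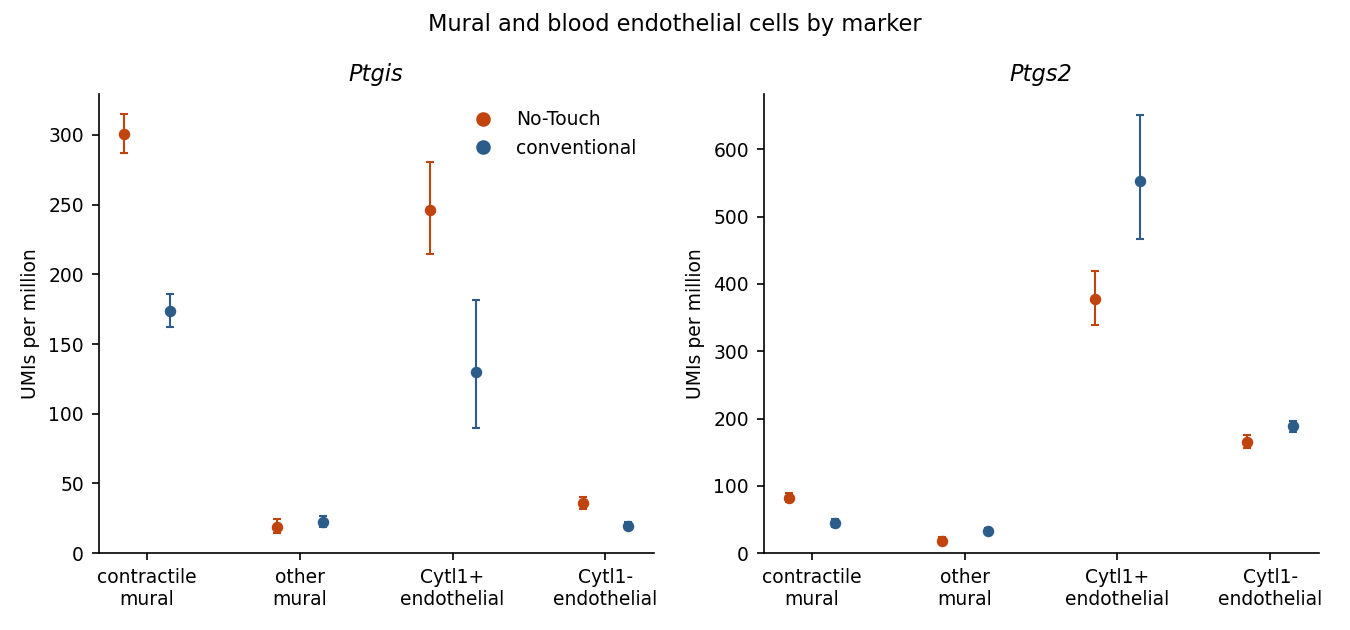
Levels of Ptgis and Ptgs2, in CPM from 0, in mural cells with and without contractile genes and blood endothelial cells with and without Cytl1, No-Touch left of conventional; bars are exact 95% Poisson intervals. Ptgis is higher in contractile mural cells (301 and 174) than in other mural cells (18.9 and 22.5). It is also higher in Cytl1 cells (246 and 130) than in blood endothelial cells without Cytl1 (35.6 and 19.4).

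The rest of the pathway was read from gene lists, to be set beside the shares of all genes given above: 7.61% higher and 3.57% lower in fibroblasts, 12.4% and 6.81% in mural cells, and 11.0% and 5.62% in blood endothelial cells. Of 13 genes of arachidonate release, 5 were compared in fibroblasts and none was 1.5-fold apart (median log2 ratio -0.26, against 0.05 over all genes). In mural cells (median 0.30, against 0.07 over all genes) 2 of 5 were higher: the monoacylglycerol lipase Mgll, at 73.8 CPM in No-Touch and 24.3 CPM in conventional cells, and the cytosolic phospholipase Pla2g4a, at 28.1 and 9.99 CPM. In blood endothelial cells 2 of 4 were higher and 1 lower (median 0.53, against 0.06 over all genes). The lower one was Mgll, at 86.2 and 164 CPM. Mgll was thus higher in No-Touch mural cells and lower in No-Touch endothelium. Of 8 other prostanoid synthases none of 4 compared in fibroblasts, 4 in mural cells and 3 in blood endothelial cells was 1.5-fold apart (medians -0.03, 0.24 and 0.27).

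Of 6 genes of transport and breakdown, 4 were compared in each of fibroblasts, mural cells and blood endothelial cells. Of these, 1 was higher in fibroblasts, 2 in mural and 2 in blood endothelial cells, with none lower (medians 0.09, 0.51 and 0.56). They include the prostaglandin carrier Slco2a1 in blood endothelial cells (464 and 277 CPM) and the reductase Ptgr1 in fibroblasts (30.4 and 19.3 CPM). Of 9 receptors, 3 were compared in mural cells, with 0 higher and 1 lower (median 0.34). The prostacyclin receptor Ptgir was lower there, at 82.7 CPM in No-Touch and 139 CPM in conventional cells. Of 11 genes of the interleukin 1 and NF-kappaB route that induces Ptgs2, 8 were compared in fibroblasts, with 1 higher and 1 lower (median -0.05). In mural cells 1 of 10 was higher and 3 lower (median -0.21), and in blood endothelial cells 2 of 9 were higher and 3 lower (median -0.35). The higher one in fibroblasts was Cebpb, which encodes a C/EBP factor, at 958 and 472 CPM. Ptgs2 was lower in the same fibroblasts, and a link between Cebpb and Ptgs2 was not tested.

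Genes that respond to tissue handling moved unevenly. Among 16 early response and heat shock genes, No-Touch fibroblasts had 3 higher and 1 lower (median log2 ratio -0.18), where 7.61% of all genes were higher and 3.57% lower and their median was 0.05. Fos stood at 4653 and 2828 CPM, Socs3 at 1327 and 642 CPM, Zfp36, whose protein destabilises Ptgs2 mRNA, at 3301 and 1681 CPM, and the heat shock gene Hspa1b at 370 and 563 CPM. Fos, Socs3 and Zfp36 were also higher in mural and blood endothelial cells. Ptgs2 is itself an immediate early gene, and the parts of digestion and of Zfp36 in its levels were not tested.

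Over 12 points, the 6 classes in each library, the genes most like each member among 6029 were found by Pearson's r of log2(CPM + 1). For Ptgs1 these were AW112010 (0.939), Fgf23 (0.929) and Edn1 (0.925), and for Ptgs2 Ptk2b (0.949), Prr13 (0.938) and Tnfaip3 (0.918). For Ptges they were Adora2b (0.966), Cxcl5 (0.946) and Ifi205 (0.940), and for Ptgis Mgp (0.962), Lox (0.951) and Tcea3 (0.948). The points of 1 library share its depth and its free RNA, so these are descriptions.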

How the data were processed

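The 2 droplet libraries (10x Genomics, 3′ UMI counting) of CD45- cells were used, one per group. The deposited values are raw UMI counts per gene and barcode. Per the submitters' processing notes they were made with Cell Ranger 3.1.0 on mm10, while the deposited file headers name cellranger 6.0.0. Which kit version was used is not settled by the labels, and no source used here states the strand of counting. The authors' matrices were already filtered to 12450 No-Touch and 11899 conventional barcodes, with 373319906 and 200851272 UMIs.

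Filters kept cells of at least 500 genes and 1000 UMIs with mitochondrial UMIs of no more than 10%. A marker counted as positive at 10% of the mean of its top 100 cells, above a fixed floor. This threshold was chosen after cell counts were seen. A class needed 3 positive markers and 2 more than any other class, and cells with markers of several classes (262 and 329) were left out as likely doublets. Endothelial cells were split into blood and lymphatic by 3 positive markers of either kind. Removing the highest 8% of Scrublet scores was an alternative. Clusters within classes used scanpy 1.11.5 on 2000 genes, 30 components and 15 neighbours at resolution 0.5, without the pathway genes. Counts were summed per class and library and given as CPM. Intervals are exact (Poisson, conditional binomial for ratios, Clopper-Pearson for shares) at 95%, and cover counting error only. With 1 library per group no test was run. Genes with at least 10 CPM in either library were compared, and ratios of at least 1.5 are named.

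The text names the 6 members, up to 4 genes per list of at least 20 CPM with the largest ratios, and the 3 genes most like each member among those of at least 50 CPM; clusters are described by their leading genes. The members and lists were chosen with earlier results of these data known, and the splits by sex-linked RNA, contractile genes, Cytl1, Selp and Gpihbp1 after seeing the data. The calculation of ratios was checked on simulated counts that held counting error only. Of 200 genes changed 2-fold among 8094 in fibroblast totals, 100% passed 1.5-fold, and 98.5% did among 8509 in lymphatic endothelial totals. The changed genes had at least 20 CPM. No difference between mice, libraries or clusters was simulated, so this check cannot tell how far the ratios would repeat. Alternative scalings used edgeR 4.0.16's TMM and median-of-ratios.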

Additional observations from a re-analysis of the deposited data

Results flagged for a closer look

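Differences of opposite sign between cell classes drew attention for 2 members, counting only ratios past 1.5-fold whose counting interval excludes 1. None of these differences was tested, since each class has 1 library per group. For Ptgs2, the mural log2 ratio of No-Touch over conventional exceeded the fibroblast ratio by 1.36 and the Schwann ratio by 1.36. For Ptgis, the mural ratio exceeded the fibroblast ratio by 1.87 and the Schwann ratio by 2.06. The blood endothelial ratio of Ptgis exceeded the fibroblast ratio by 2.16 and the Schwann ratio by 2.35. The Schwann ratios rest on 48 and 41 UMIs of Ptgs2 and 45 and 43 of Ptgis. With fibroblast RNA subtracted, neither reached 10 CPM in Schwann cells. Mural Ptgis was lower in No-Touch cells within clusters 2, 3 and 4. The mural log2 ratio of Ptgs2 was -0.20 with clusters in place of gates.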

How the results depend on the processing

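Among 211 alternative values of 19 ratios, 139 stayed within the counting interval of the main value, 67 moved outside it and 5 reversed a named difference. The fibroblast ratios of Ptgs2, Ptges and Ptgis kept their sign under all 12 alternatives run for each, and passed 1.5-fold under 11, 8 and 11 of them. Without the clusters led by other cells' or parathyroid markers, fibroblast Ptges was -0.30 and Ptgs1 0.35, against -0.14 over all fibroblasts. Mural Ptgs2 passed it under 8 of 12, mural Ptgis under 11 of 12 and blood endothelial Ptgis under 13 of 13. With clusters in place of gates, mural Ptgs2 was -0.20, lymphatic endothelial Ptges 0.38 and Schwann Ptgis 0.24; Schwann Ptgs2 was 0.16 as a mean over cells and Schwann Ptgis 0.27 with thinned cells. The cause was not tested, except that the mural clusters lost most cluster 4 cells. The blood endothelial log2 ratio of Ptgis ran between 0.86 and 3.24, the highest after subtracting fibroblast RNA at the Dcn ratio. Members 1.5-fold apart numbered 0 with clusters in place of gates in mural, lymphatic endothelial and neutrophil cells and 1 in Schwann cells. With no minimum level they numbered 5 in fibroblasts, 3 in blood endothelial, 3 in lymphatic endothelial and 6 in Schwann cells. With 4 positive markers they numbered 2 in lymphatic endothelial cells. Thinned cells gave 0 in Schwann cells and 2 in neutrophils, and a mean over cells gave 1 in Schwann cells. Subtracting fibroblast RNA gave 0 in lymphatic endothelial and Schwann cells and 2 in neutrophils. Genes of the pathway lists 1.5-fold apart numbered 7, 13, 16 and 13 in fibroblast, mural, blood and lymphatic endothelial cells, and 22, 23, 26 and 27 with no minimum. The alternatives on fibroblast RNA, sex-linked RNA, marker splits and clusters led by other cells' genes were chosen after seeing the data. No paired analysis was possible because each group is 1 library.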

Other observations

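The antisense gene Ptgs2os starts at position 150099963 of chromosome 1 on the minus strand, inside the Ptgs2 promoter window and outside the Ptgs2 transcript. In fibroblasts it stood at 6.30 CPM (6.03 to 6.58) in No-Touch cells and 16.0 CPM (15.4 to 16.7) in conventional cells, the same direction as Ptgs2. In blood endothelial cells, where the intervals of Ptgs2 overlap, Ptgs2os stood at 6.36 CPM (4.72 to 8.38) and 13.5 CPM (11.5 to 15.7). In mural cells it stood at 2.67 and 2.48 CPM. No source used here states the strand of counting.

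Within conventional fibroblasts, Hpgd was higher in cells with Xist (9.64 CPM, 8.32 to 11.1) than in Y-linked cells (4.10 CPM, 3.67 to 4.56), and 144 of the 192 Hpgd UMIs of the cells with Xist were in 75 cells of cluster 6. There the same split gave 86.4 CPM of Hpgd and 51.6 CPM of Ptgis in 75 cells with Xist, against 6.16 and 298 CPM in 817 Y-linked cells, while Ptgs2 was 266 and 265 CPM. In cluster 9, Ptgs2 was 146 CPM in 633 cells with Xist and 226 CPM in 1509 Y-linked cells, Ptges 101 and 107 CPM, and Hpgd 1.68 and 1.93 CPM.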
